A study of Mus musculus with 12 samples.

Results

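The 8 genes described here encode enzymes of cholesterol synthesis and the proteins that control their expression: Hmgcs1, Idi1, Fdft1 and Sqle among the enzymes, and Srebf2, Scap, Insig1 and Insig2 in the control system. They were taken as a named list of 8 of the 21938 protein-coding genes of the mouse annotation GENCODE M21. A gene was given every peak that touched its body or lay within 3 kb of any of its transcription start sites. The measurement was chromatin immunoprecipitation followed by sequencing (ChIP-seq) of MOF (KAT8), an acetyltransferase for lysine 16 of histone H4, in visceral white adipose tissue (WAT). Wild-type (Mof+/+) mice carried both copies of the MOF gene, and Mof heterozygous (Mof+/-) mice had lost one copy in the whole body rather than in one cell type. All mice were C57BL/6, were 8 weeks old and had been fed a standard diet. The labels give 2 libraries each for MOF ChIP, H3 ChIP and input in each genotype, 12 in all, and the data analysed were 1 list of MOF peaks per genotype.

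Cholesterol is built from acetyl-CoA through mevalonate, isoprenoid units, squalene and lanosterol. When sterols are low in the membrane of the endoplasmic reticulum, SCAP carries SREBP2 (the product of Srebf2) to the Golgi, where proteases release the part that enters the nucleus and activates the enzyme genes through sterol regulatory elements. When sterols are high, INSIG1 and INSIG2 hold SCAP back. Adipocytes store a large pool of free cholesterol in and around their lipid droplets, much of it taken up rather than made.

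Each peak comes with a fold enrichment, which is the number of ChIP fragments over the peak's summit relative to the local input background, each raised by 1 fragment. The fragments behind each value were solved from the fold enrichment and the p-value, and the 95% exact Poisson intervals given below cover counting error of the ChIP fragments only. The background was taken as exact. With 1 list per genotype there were no replicate values, differences could not be compared with the variation among animals, and no test was made. Library totals are not in the lists. Input background went down to 2.26 fragments in the Mof+/- data against 3.52 for Mof+/+, and 716 Mof+/- and 19753 Mof+/+ peaks lay on the assembled chromosomes. At these backgrounds a Mof+/- peak was called from 11 fragments at a fold enrichment of 3.68, and a Mof+/+ peak from 11 fragments at 2.65. Kat8, which encodes MOF, had 3 Mof+/+ peaks and 0 Mof+/- peaks, but peaks measure binding at the gene and so do not check the genotype. Of 10 adipocyte markers 8 had a Mof+/+ peak (Lep and Retn had none), as did 10 of 10 B cell markers, 8 of 10 T cell markers (all but Cd4 and Zap70) and 1 of 10 macrophage markers (Cd68), against 44.5% of all protein-coding genes. A Mof+/- peak was found at 1 of these 40 markers, the B cell gene Pax5, which had 3, against 1.89% of all protein-coding genes. The part of each cell type in the peaks at the sterol genes was not tested. In bulk tissue, fewer cells with MOF at a site and less MOF at the site per cell cannot be told apart.

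The promoters of 4 of the genes are shown first, because they differ in where the MOF peak lay relative to the bases just before the start. Sequences and start sites are those of RefSeq for GRCm38, given 5′ to 3′ on the gene's strand, and 6 of the 8 genes were matched (Sqle and Fdft1 were not). Each begins 250 bases before the RefSeq start and ends before the first base that any annotated transcript starts with there. Capitals mark matches, on either strand, to the sterol regulatory motif TCACNCCAC, to CCAAT (the NF-Y motif, ATTGG on the other strand) and to the E-box CACGTG. The Srebf2 and Insig2 stretches lay wholly inside their peaks, whereas those of Hmgcs1 and Insig1 ended before theirs began.
Hmgcs1, chr13:119690101-119690350, + strand: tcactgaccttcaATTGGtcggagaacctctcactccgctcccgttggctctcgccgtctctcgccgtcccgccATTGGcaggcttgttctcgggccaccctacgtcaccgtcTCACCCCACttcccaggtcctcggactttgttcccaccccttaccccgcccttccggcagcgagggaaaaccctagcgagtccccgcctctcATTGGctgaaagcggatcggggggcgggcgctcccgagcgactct
Srebf2, chr15:82147019-82147180, + strand: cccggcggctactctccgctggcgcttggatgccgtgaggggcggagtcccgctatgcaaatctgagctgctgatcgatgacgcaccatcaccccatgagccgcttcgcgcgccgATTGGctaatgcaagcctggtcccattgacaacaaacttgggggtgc
Insig1, chr5:28071162-28071362, + strand: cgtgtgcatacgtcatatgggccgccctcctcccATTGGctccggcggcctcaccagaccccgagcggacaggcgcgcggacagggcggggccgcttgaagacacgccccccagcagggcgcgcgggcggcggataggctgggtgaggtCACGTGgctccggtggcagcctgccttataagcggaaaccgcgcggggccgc
Insig2, chr1:121328025-121328274, - strand: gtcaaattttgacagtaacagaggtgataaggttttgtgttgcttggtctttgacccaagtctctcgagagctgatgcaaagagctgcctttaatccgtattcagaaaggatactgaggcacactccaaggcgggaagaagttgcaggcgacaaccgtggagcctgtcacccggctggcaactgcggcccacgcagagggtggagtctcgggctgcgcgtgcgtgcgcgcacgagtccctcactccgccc

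The sterol regulatory motif was found in 1 of the 9 RefSeq promoters of the 6 genes (3 for Insig2, 2 for Scap and 1 for each of the others), each from 250 bases before to 50 bases after the start. This was in Hmgcs1, at bases -137 to -129 from the RefSeq start, and it lay 209 bp before the first base of the Hmgcs1 peak. Of 32817 promoters of that length, 1.24% held the motif. CCAAT was in 5 of the 9 (37.4% of all promoters), the Sp motif GGGCGG in 8 of the 9 (35.6%) and CACGTG in 3, that of Insig1 and the overlapping pair of Scap (7.15%). The Scap pair also shared a GGGCGG match. These shares are over all promoters and were not matched for base composition. At Insig2, CCAAT was matched in the outermost promoter only, whose nearest match lay 4325 bp from the Insig2 peak, and not in the one printed here. The motifs were searched separately on both strands, so matches to different motifs may share bases, and each match describes the sequence only. Only exact matches were counted. The counts therefore do not show that the other promoters lack sterol regulatory elements. The Insig1 E-box lay 60 bp before the Insig1 peak. The Srebf2 stretch is the one that held a CCAAT match inside a MOF peak.

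In Mof+/+ WAT, 6 of the 8 genes had a MOF peak and 2, Idi1 and Sqle, had none. The 6 genes held 14 peaks, of which Srebf2 alone had 8. Under the same rule 44.5% of all protein-coding genes had a Mof+/+ peak. For peaks within 1 kb of a start site the count was 5 of 8, since the Scap peak lay farther away, against 41.0% of protein-coding genes. Fold enrichment of the 14 peaks ran from 2.58 to 5.53 (median 3.42, against 3.40 over the whole Mof+/+ list), on 13 to 24 fragments at the summit. The 5 peaks near a start site ran from 3.92 to 5.53 with a median of 4.59, and each was above the median of 3.76 over all 10141 Mof+/+ peaks within 1 kb of a start. Of the 9 peaks farther away, 1 intronic Srebf2 peak reached 4.68, above 4 of these 5. Their order was Srebf2, Fdft1, Hmgcs1, Insig2 and Insig1, but all 5 intervals overlapped, and the order was not tested.

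**Figure D1:**
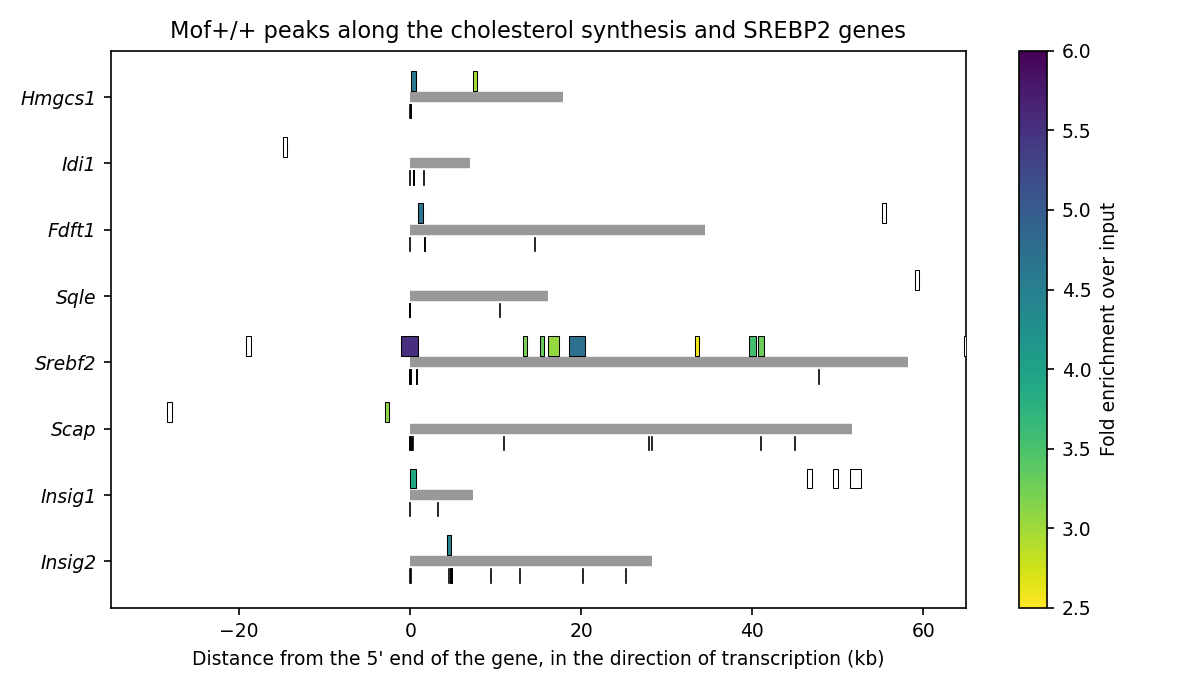
Mof+/+ MOF peaks (boxes) along the 8 genes, by distance in kb from the 5′ end of each gene in the direction of transcription. Grey bars are gene bodies, black ticks are annotated start sites, box colour is fold enrichment over input, white boxes are peaks that did not meet the rule for the gene, and narrow peaks are drawn at 0.5 kb so that they can be seen. Peaks sat near a start at Hmgcs1, Fdft1, Srebf2, Insig1 and Insig2, Srebf2 had 7 more in its introns, the Scap peak lay 2443 bp before the gene, and Idi1 and Sqle had none. Only Mof+/+ peaks were drawn, and the nearest Mof+/- peak to any start site of these genes lay 61422 bp away.

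Among the enzymes, Hmgcs1 encodes the cytosolic HMG-CoA synthase, an early enzyme of the mevalonate route. The gene spans chr13:119690379-119708260 on the + strand and had 2 Mof+/+ peaks. The first, chr13:119690431-119691050, covered 3 of its 4 start sites and had a fold enrichment of 4.59 (95% interval 2.89 to 6.97) on 20 fragments. Its summit lay in the first part of the gene, 274 bp downstream of the nearest start and within an intron. By fold enrichment it stood above 83.9% of all Mof+/+ peaks and above 74.3% of those near starts. The second peak, chr13:119697744-119698107, was an intronic one of 2.98 (1.69 to 4.94) on 13 fragments, and the start of the antisense gene Gm48342 was nearer to it (6442 bp) than that of Hmgcs1 (7280 bp).

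Fdft1 encodes squalene synthase, which joins 2 farnesyl diphosphate molecules in the first step that leads only to sterols. It lies at chr14:63145150-63179578 on the - strand and had 1 peak, chr14:63178215-63178514, with a fold enrichment of 4.65 (2.92 to 7.05) on 20 fragments. The peak was 300 bp wide, narrower than all but 7.63% of the list. Its edge lay 418 bp from a start site and its summit at -649 bp from that start (upstream), which is 1132 bp downstream of the outermost start and in an untranslated region. The nearest 3 Mof+/- peaks beyond the 5′ end of this gene did not meet the rule: the closest began 61422 bp beyond that end, at chr14:63241000-63241785 near Gata4, with a fold enrichment of 3.61 inside a Mof+/+ peak of 3.87. The other 2 lay farther out, with 5.21 inside a Mof+/+ peak of 3.58 and 4.78 inside one of 3.68.

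Idi1 encodes isopentenyl diphosphate isomerase, which interconverts the isoprenoid units. It lies at chr13:8885501-8892451 on the + strand, and its nearest Mof+/+ peak was 14403 bp from its closest start site, over the start of Wdr37, with a fold enrichment of 3.31. Sqle encodes squalene epoxidase, a rate-limiting enzyme after squalene. It lies at chr15:59315077-59331192 on the + strand, and its nearest Mof+/+ peak was downstream of the gene, 48519 bp from its closest start site, over the starts of Washc5 and Nsmce2, with a fold enrichment of 4.65. Neither distance comes near the window of 3 kb, so the absence of a peak at these 2 genes did not depend on the width of that window. A weaker signal there would not be in a list of called peaks.

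Srebf2, the gene of the transcription factor itself, lies at chr15:82147181-82205379 on the + strand and had the most peaks and the strongest one. The peak over its start, chr15:82146091-82148107, was 2017 bp wide and wider than 93.4% of the list, and it covered 6 of the 7 start sites. It had a fold enrichment of 5.53 (3.62 to 8.12) on 24 fragments, above 94.1% of all Mof+/+ peaks and 90.1% of those near starts, with the summit 257 bp downstream of the nearest start. The other 7 peaks were all intronic and ran from 2.58 to 4.68. The strongest of these was also wide, at 1883 bp (chr15:82165749-82167631), and had 4.68 (2.98 to 7.04) on 21 fragments, an interval that overlapped that of the start peak. The 3 peaks farthest into the gene lay nearer to the start of Gm49502, an unclassified transcript, than to any start of Srebf2. Having 8 or more Mof+/+ peaks was uncommon, at 1.19% of protein-coding genes, but Srebf2 is also long (58199 bp against a median of 17425 bp), and how far its length bears on the count was not tested. Peaks were counted unmerged, and some of the Srebf2 peaks lay within 1000 bp of each other. Mir33, a microRNA gene within Srebf2, lay 9519 bp from the nearest Mof+/+ peak.

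Scap encodes the escort of SREBP2 and lies at chr9:110333288-110384950 on the + strand. Its 1 peak, chr9:110330384-110330845, was outside the gene, 2443 bp before the start and over the start of Gm42638, another unclassified transcript. It had a fold enrichment of 3.10 (1.75 to 5.14) on 13 fragments, the fewest of the 14 peaks together with the second Hmgcs1 peak. Scap was thus counted through the 3 kb window alone.

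Insig1 and Insig2 encode the pair of membrane proteins that retain SCAP, and Insig1 is itself an SREBP target. Insig1 lies at chr5:28071363-28078662 on the + strand, and its peak, chr5:28071376-28071996, began 13 bp after the start with its summit in coding sequence, 351 bp from the start. The Insig1 summit held 22 fragments, the second most of the 14, but over a higher input background of 4.87 fragments, which gave a fold enrichment of 3.92 (2.52 to 5.84). Insig2 lies at chr1:121304353-121332589 on the - strand and has 14 annotated starts. Its peak, chr1:121327840-121328289, was not at the outermost start but covered an inner one at position 121328024, as well as the start of the unclassified transcript Gm37174. It had 19 fragments over the lowest background, 3.52, and a fold enrichment of 4.42 (2.75 to 6.78). Thus the 2 INSIG genes both had a start-site peak, and their intervals overlapped.

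**Figure D2:**
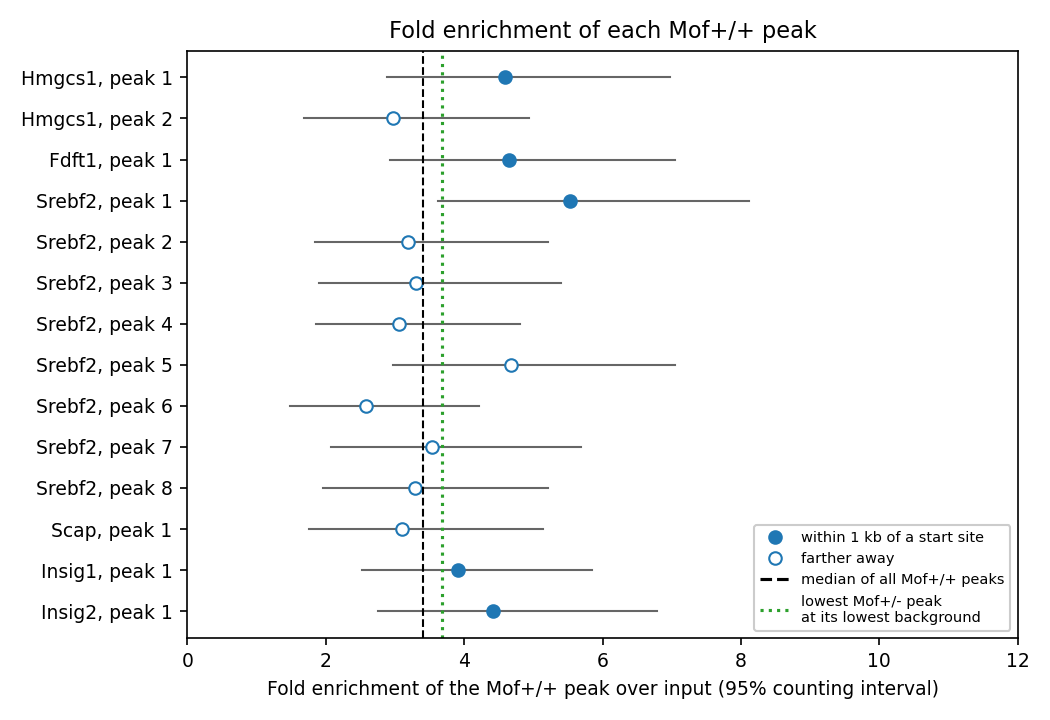
Fold enrichment over input of each of the 14 Mof+/+ peaks (x axis, a ratio), numbered along the chromosome within each gene. Points are deposited values, lines are 95% exact Poisson intervals for counting error, filled points lie within 1 kb of a start site, the dashed line is the median of the Mof+/+ list (3.40) and the dotted line the lowest fold enrichment called in the Mof+/- list at its lowest background (3.68). All 5 filled points lie to the right of both lines, and their intervals overlap.

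The summits of 3 start-site peaks are shown as sequence, 50 bases on each side, because they held no untranslated bases. They are given for the cutting sites of CviKI-1, the enzyme used with sonication to fragment the chromatin, since fragment ends depend in part on these sites. Capitals mark matches to its site, RGCY (R for a purine, Y for a pyrimidine), and each stretch held 2. Over the whole Mof+/+ list the median peak had 21.2 such sites per kb (interquartile range 15.7 to 26.9), and the 14 peaks ran from 5.49, in the second Hmgcs1 peak, to 29.0, in the first.
Hmgcs1 summit, chr13:119690688-119690788, + strand: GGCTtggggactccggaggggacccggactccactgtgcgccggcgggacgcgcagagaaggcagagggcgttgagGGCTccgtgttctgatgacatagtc
Srebf2 summit, chr15:82147458-82147558, + strand: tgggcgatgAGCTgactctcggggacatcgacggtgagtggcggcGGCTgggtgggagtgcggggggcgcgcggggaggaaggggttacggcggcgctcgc
Insig1 summit, chr5:28071664-28071764, + strand: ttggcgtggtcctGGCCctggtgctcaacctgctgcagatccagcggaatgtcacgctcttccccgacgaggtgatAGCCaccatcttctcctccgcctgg

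In Mof+/- WAT, 0 of the 8 genes had a MOF peak. This count is close to the background: 1.89% of all protein-coding genes had a Mof+/- peak, and of the 9773 genes with a Mof+/+ peak 4.06% had one. It is therefore not a result particular to the sterol genes. Measured from the closest start site of each gene, the nearest Mof+/- peak was 61422 bp away for Fdft1, 127201 bp for Insig2, 289215 bp for Srebf2 and 516294 bp for Scap, and for the other 4 between 1404157 bp (Insig1) and 21186629 bp (Hmgcs1). The lists were called at unequal strictness, since the weakest Mof+/- peak had a −log10 p of 4.72 and the weakest Mof+/+ peak one of 3.25. Of the 14 Mof+/+ peaks, 11 passed the Mof+/- value, and the 3 that did not were the second Hmgcs1 peak, the sixth of Srebf2 and the one at Scap. By fold enrichment, 6 peaks at 5 genes (all but Scap) reached 3.68, the lowest value called in the Mof+/- list at its lowest background. Whether the sites without a Mof+/- peak held less MOF or fell short of the calling threshold was not tested.

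The wider sterol pathway was then described with the same rule, over 45 genes that include the 8. A Mof+/+ peak was found at 32 of the 45 (71.1%), or 26 of 37 (70.3%) without the 8, and a Mof+/- peak at 0. The parts of the pathway differed in their counts. Of the 20 synthesis enzymes 9 (45.0%) had a peak, close to the 44.5% of all protein-coding genes, and 7 of 16 without the 8 genes. All 12 genes of the SREBP machinery had one, as did the 8 of these that are not among the 8 genes described above. These 12 are both SREBP genes, Scap and the Insigs, the 2 site proteases and the ubiquitin ligases and erlins of sterol-driven degradation. For uptake, storage and efflux the count was 11 of 13. The difference between the enzymes and the machinery was not tested.

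The enzymes with no Mof+/+ peak included Mvk, Idi1 and Fdps of the mevalonate and isoprenoid steps, Sqle, and Cyp51, Msmo1, Nsdhl, Hsd17b7, Ebp and Sc5d, which act after lanosterol. Of these, Nsdhl and Ebp are on the X chromosome. Fdps, which encodes farnesyl diphosphate synthase, came closest, with a Mof+/+ peak 4818 bp from its start.

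Where there was a peak, the strongest one at each gene had a median fold enrichment of 4.37 over the 32 pathway genes and 4.51 over the 6 genes described above, against 3.98 over all protein-coding genes with a peak. The 5 highest outside the 8 genes were Mylip at 6.64 (4.52 to 9.43), which encodes the ligase that degrades the LDL receptor, Syvn1 at 5.97 (3.98 to 8.65), an endoplasmic reticulum ubiquitin ligase, Nr1h3 at 5.97 (3.98 to 8.65), the sterol-sensing receptor LXRα, Mvd at 5.93 (4.01 to 8.49), which makes isopentenyl diphosphate, and Abcg1 at 5.41 (3.63 to 7.78), a cholesterol exporter. The Nr1h3 peak lay over the start of the neighbouring gene Madd, 6342 bp from a start of Nr1h3. Abcg1 and Srebf1 also had 8 peaks each, as Srebf2 did. The intervals of all 5 overlapped that of the Srebf2 start peak. Of 12 genes of fatty acid synthesis, the branch that SREBP1 controls, 9 had a Mof+/+ peak (44.5% of all protein-coding genes) and 0 a Mof+/- peak (1.89%), and the median of their strongest peaks was 3.66. Among the 9 is Srebf1, also counted in the machinery, and without it the count was 8 of 11. All 9 had a peak within 1 kb of a start (75.0%), against 52.8% of protein-coding genes in the same CpG quartiles, which are described next.

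**Figure D3:**
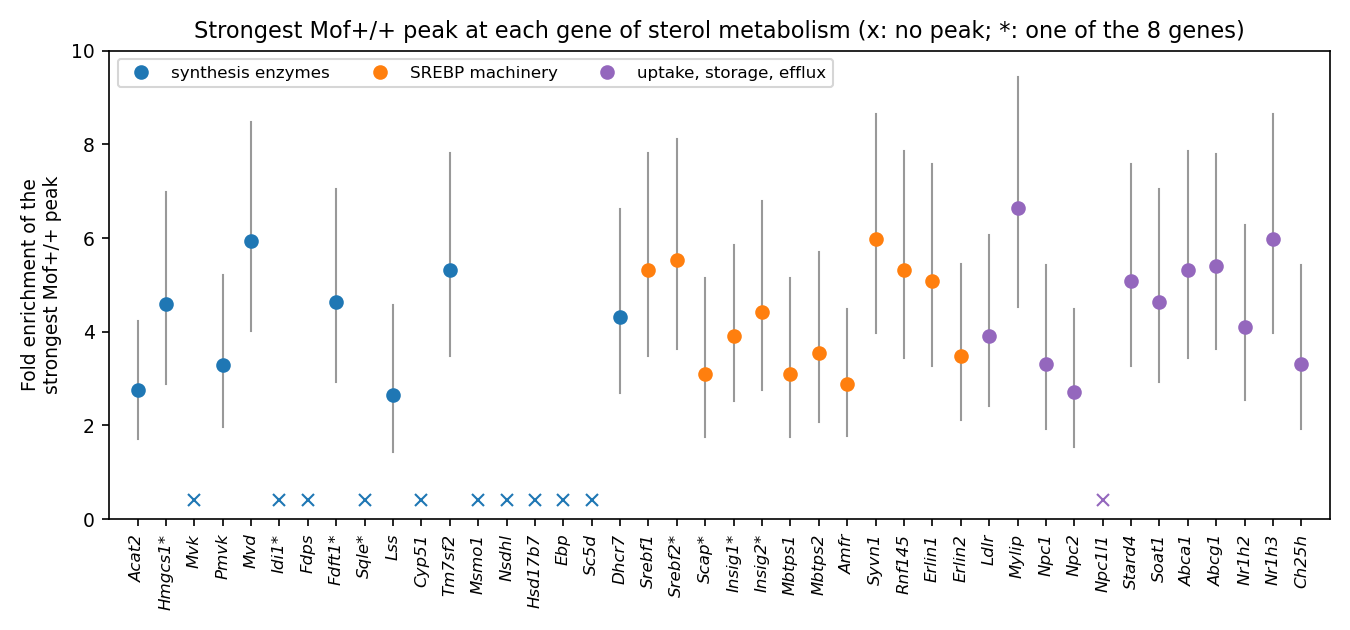
Fold enrichment over input (y axis, a ratio) of the strongest Mof+/+ peak at each of 42 sterol genes, in the order of the pathway and coloured by group. Points are deposited values with 95% exact Poisson intervals for counting error, a cross at the bottom marks a gene with no peak, and an asterisk one of the 8 genes described above. Crosses stand at 10 of the 18 synthesis enzymes drawn, 0 of 12 genes of the SREBP machinery and 1 of the 12 drawn genes of uptake, storage and efflux.

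The starts of these genes were rich in CpG sites, as many housekeeping and metabolic genes are, and Mof+/+ peaks were found more often at such starts. CpG sites were counted over 500 bp on either side of each start of a coding transcript, and the highest count was taken for each gene. The share of protein-coding genes with a Mof+/+ peak within 1 kb of a start was 4.78% in the lowest quartile of that count, then 26.0%, 62.3% and 72.8%. The 8 genes had 54 (Idi1) to 100 (Insig1) CpG sites, with 4 genes each in quartiles 3 and 4. Among all 7810 protein-coding genes in that range 67.0% had a peak within 1 kb of a start, against 5 of the 8 (62.5%), so the count of start-site peaks at the 8 genes was near what their CpG content goes with. Sqle (95) and Scap (86) had none despite counts in the top quartile, while Insig2 (60) and Fdft1 (65) had one. For the longer lists, the share with a start-site peak was 45.0% of the enzymes against 55.3% of protein-coding genes in the same quartiles, 91.7% against 71.1% for the machinery, and 84.6% against 54.8% for uptake, storage and efflux. These shares were not tested.

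**Figure D4:**
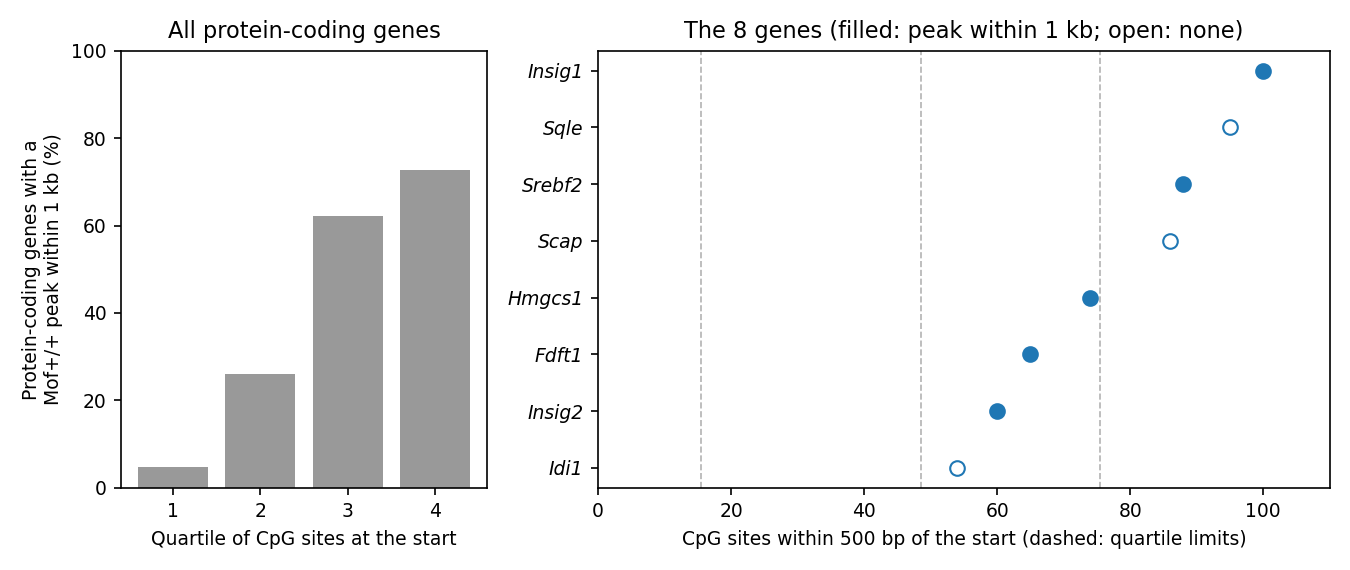
Left, share of protein-coding genes (%) with a Mof+/+ peak within 1 kb of a start site, by quartile of the count of CpG sites within 500 bp of the start. Right, that count for each of the 8 genes, with filled points for a start-site peak, open points for none and dashed lines at the quartile limits. All 8 genes lie in the upper 2 quartiles, where 62.3% and 72.8% of genes had a peak, and of the open points Idi1 lies below all filled ones while Scap and Sqle lie among them.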

How the data were processed

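MOF ChIP-seq of visceral WAT was aligned by the authors to GRCm38 (snakePipes), with peak calling by MACS2 2.1.1.20160309.3 (the version in the submitters' processing notes) against input at a q-value threshold of 0.1. The deposited lists, 1 per genotype, hold for each peak its summit position and, at that position, a fold enrichment (a ratio to input background), a −log10 p-value and a −log10 q-value. A deposited score was not used. How replicates were combined is not given in the sources used here. Labels give 2 libraries per group, but the design text speaks of 3 Mof+/- animals. The reporting summary gives 2 littermates per genotype, as many as the labels do. The MOF antibody in the labels differs from that in the study's reporting summary. The methods also merge peaks within 1000 bp, and the lists were used unmerged.

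Lists were mapped to genotypes by name. Peaks on chromosomes 1 to 19, X and Y were assigned to GENCODE M21 genes by at least 1 bp of overlap with the gene body or the 3 kb around any start site. Fragments k and background were solved from fold enrichment, (k + 1)/(background + 1), and the Poisson p-value, with a tolerance of 0.001 in −log10 p. The code was tested on simulated data. Python 3.11.15, pandas 2.3.3, scipy 1.17.1, pysam 0.24.0 and matplotlib 3.10.9 were used.

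The 8 genes and the gene lists were chosen with earlier results of these data known. All 8 genes are named. Of the other sterol genes, the 5 with the highest fold enrichment, enzymes without a peak, any gene with a Mof+/- peak (0 were found) and genes whose start was nearer to a peak of the 8 genes are named. H3 libraries and signal tracks were not analysed here. Alternatives were stricter q-values, merging, other windows and 1 p-value cutoff for both lists. Of the sterol genes, 3 enter the counts but are not reported here by name.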

Additional observations from a re-analysis of the deposited data

How the results depend on the processing

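The count of genes with a Mof+/- peak was 0 under each of the 9 alternatives. The count with a Mof+/+ peak was 6 or 5, and Scap was the gene lost, with q-values limited to 0.001, within 1 kb of a start site, in the gene body only, by the nearest start site and under 1 p-value cutoff for both lists. The share of protein-coding genes with a Mof+/+ peak ran from 34.2% to 44.5% over the same settings. The 14 Mof+/+ peaks fell to 7 when q-values were limited to 0.001 and to 5 within 1 kb of a start site, fewer by construction, since both settings admit fewer peaks. Under the other settings there were 10 to 14. Merging peaks within 1000 bp left 12, since it joined neighbouring intronic peaks of Srebf2. The sterol regulatory motif was at 1 of 6 genes (1 of 9 promoters) also within 500 bp on either side of the start, where 3.8% of all promoters held it. No paired analysis was possible because the 2 lists hold no values by replicate, and leaving out a replicate could not be run for the same reason. Peaks rested on 13 to 24 fragments, so fold enrichments of single peaks were imprecise.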
